A study of Mus musculus with 1600 samples.

Results

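In 187 of the 833 wells in which a single cell had been imaged, genes of the mitochondrial genome took more than 30% of the reads, and these 187 wells, called mitochondria-rich here, are described against 639 reference wells. The members were chosen by the measured share of mitochondrial reads and by nothing else, so that share and the mitochondrial reads themselves are given as a description, with no test. Reference wells also held 1 imaged cell, had at most 30% of reads on mitochondrial genes (symbols starting mt-) and at least 500 genes with a count of 1 or more. Another 7 single-cell wells were under 30% and under 500 genes and belong to neither set, and 588 wells in which no cell was seen served as the background.

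The wells come from the Fluidigm C1 HT system, a microfluidic chip that isolates cells in separate chambers and makes a library in each. Glomeruli had been collected on a magnet after bead perfusion and broken up with enzymes. All mice were Nos3-/- on the C57BL/6 background and 10 weeks old, so the controls also lacked endothelial nitric oxide synthase. Diabetes was induced at 8 weeks of age by intraperitoneal streptozotocin, a pancreatic beta cell toxin, with a 50 µg/g dose on 5 days, and the controls, littermates, were given citrate vehicle. Each of 2 experiments combined the glomeruli of 3 mice per condition into 1 pool, which gave 4 pools of 400 wells: control pools 1 and 2 and diabetes pools 1 and 2, numbered by experiment. Values for the 4 pools are given in that order throughout. The mice within a pool cannot be separated, and a pool is the only replicate.

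The mitochondrial genome encodes a few subunits of the respiratory chain and of ATP synthase together with the ribosomal and transfer RNAs needed to translate them, and its transcripts stay inside the organelle. The other subunits of those complexes are encoded in the nucleus and imported. In single-cell data a high share of mitochondrial reads is known both from cells that have lost cytoplasmic RNA and from cell types packed with mitochondria, and in the kidney the thick ascending limb and distal convoluted tubule are among the richest in mitochondria.

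The mouse nuclear genome carries copies of mitochondrial sequence, annotated as pseudogenes, to which mitochondrial reads can be assigned. Stretches of 2 such pairs are shown, because reads from these bases cannot be told apart by sequence except at the single base in capitals. All are from GRCm38, the build of the files, and are written 5′ to 3′ along the transcript. In the mt-Nd3 pair, T3C is the only difference in 344 of 345 identical bases, counted from 1 at the 5′ end of the transcript. The mt-Co3 pair was identical over all 783 aligned bases, and positions 362 to 422 are given.
mt-Nd3, chrM:9459-9491, plus strand: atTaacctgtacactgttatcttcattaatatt
Gm28438, chr1:24613087-24613119, minus strand: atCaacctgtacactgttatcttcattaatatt
mt-Co3, chrM:8968-9028, plus strand: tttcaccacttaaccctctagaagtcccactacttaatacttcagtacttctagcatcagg
Gm28437, chr1:24613550-24613610, minus strand: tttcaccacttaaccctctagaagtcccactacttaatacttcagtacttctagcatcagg

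Copies took a large part of what was left of the mitochondria-rich wells after the mt- genes had been set aside. They held 38.75, 36.84, 38.38 and 24.38% of the reads on all other genes in mitochondria-rich wells, against 3.186, 3.443, 2.414 and 3.99% in reference wells and 12.03, 6.092, 7.001 and 7.281% in empty wells. The copy of mt-Co3, Gm28437, alone took 13.69, 13.98, 13.16 and 7.807% in mitochondria-rich wells and 1.001, 1.245, 0.7501 and 1.243% in reference wells. Gm29216 took 10.49, 13.79, 10.99 and 10.32% against 0.879, 1.311, 0.7305 and 1.725%. For every copy with enough counts to be tested the mitochondria-rich sums lay above the reference sums, which restates the rule that chose the wells and is no further result. Levels below are therefore in CPM, counts scaled to a common total of reads on genes that are neither mt- genes nor copies. Those reads are called other reads.

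Mitochondria-rich wells were unevenly spread over the pools. They made up 64 of 189 single-cell wells of control pool 1 (33.86%, exact 95% interval 27.15 to 41.09), 15 of 218 of control pool 2 (6.881%, 3.902 to 11.09), 58 of 188 of diabetes pool 1 (30.85%, 24.33 to 37.98) and 50 of 238 of diabetes pool 2 (21.01%, 16.01 to 26.74). The intervals cover counting of wells only. Both pools of experiment 1 were higher than both pools of experiment 2, and the 2 conditions overlapped. Empty wells passed the same threshold in 60 of 195, 11 of 111, 30 of 184 and 19 of 98 cases, which is 30.77, 9.91, 16.3 and 19.39%. The share of empty wells was above that of single-cell wells in control pool 2 and below it in the other 3 pools, and the gap was widest in diabetes pool 1.

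The threshold cut through a continuous range of shares. There were 57 single-cell wells with a share of 20 to 25%, 42 with 25 to 30%, 25 with 30 to 35% and 21 with 35 to 40%. The 5 wells just inside had 30.38 to 30.56% and the 5 just outside had 29.39 to 29.76%. The wells just inside were 3 immune-like wells, 1 fibroblast-like well and 1 distal tubule-like well, by the clusters described below. The median share was 54.36, 43.36, 52.22 and 45.42% in mitochondria-rich wells and 10.13, 10.34, 9.352 and 13.53% in reference wells.

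**Figure D1:**
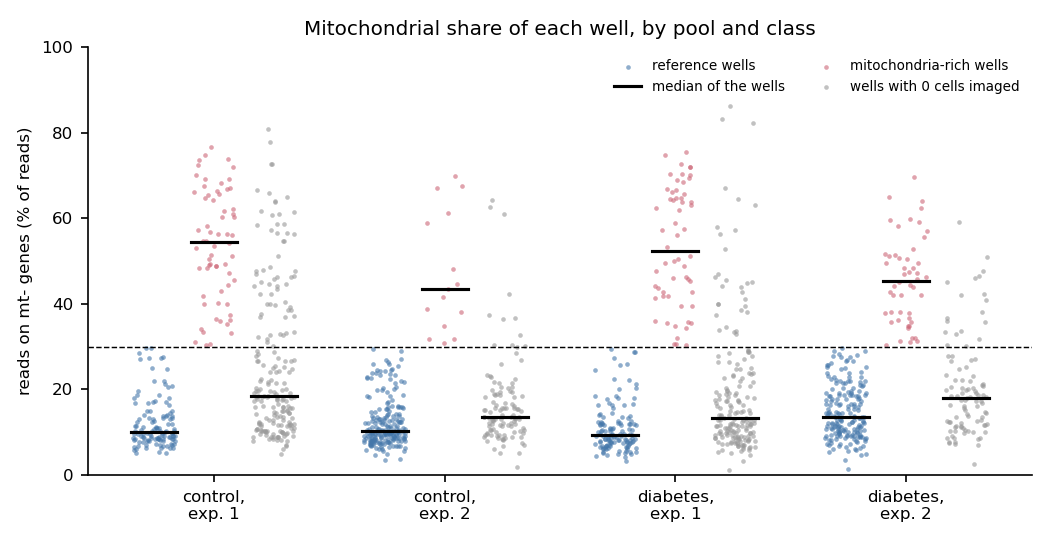
Share of reads on mt- genes (percent of reads, vertical axis) in each well of the 4 pools, with 1 point per well, a bar at the median of the wells, and a dashed line at the threshold of 30%. Mitochondria-rich wells had medians of 43.36 to 54.36%, and 9.91 to 30.77% of the empty wells of a pool also lay above the line.

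The reads of the mitochondrial genome were more often messenger RNA in mitochondria-rich wells. The ribosomal RNAs mt-Rnr1 and mt-Rnr2 together took 37.04, 32.84, 39.31 and 53.25% of mt- reads in mitochondria-rich wells and 56.22, 57.73, 61.87 and 59.98% in reference wells. The groups did not overlap, and the mean difference was -18.34 percentage points (SD 8.087, n = 4 pools). Each messenger RNA of the mitochondrial genome took a larger share in mitochondria-rich wells in all 4 pools except mt-Nd6, lower in all 4, and mt-Nd4l, lower in control pool 1. For example, mt-Co3, a subunit of cytochrome oxidase, took 12.81, 16.04, 11.78 and 9.804% against 7.913, 9.861, 7.191 and 8.347%. For mt-Nd4 the shares were 8.612, 6.21, 8.039 and 3.792% against 5.201, 3.48, 3.999 and 2.673%. Reads that the authors' counting gave to nuclear copies are missing from these shares.

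Mitochondria-rich wells held more mitochondrial reads and fewer other reads than reference wells of the same pool. The median of mt- and copy reads per well was 9124, 50640, 16260 and 43760 in mitochondria-rich wells, 4537, 29200, 5197 and 30420 in reference wells and 576.4, 5181, 451.6 and 7672 in empty wells. The median of other reads was 2693, 21410, 3882 and 31940 in mitochondria-rich wells, 27820, 186600, 37260 and 138300 in reference wells and 1125, 25570, 1611 and 23740 in empty wells. Because other reads are in the denominator of the share that chose the wells, a low number of them is partly set by the rule, and these values are a description. In control pool 2 the median of mitochondria-rich wells was lower than that of empty wells. By contrast 62 of 64, 14 of 15, 58 of 58 and 50 of 50 mitochondria-rich wells were above the upper quartile of the empty wells of their pool in mt- and copy reads. In other reads, 35 of 64, 9 of 15, 28 of 58 and 32 of 50 were at or under the upper quartile of the empty wells. Only 8, 2, 8 and 10 wells exceeded the lower quartile of the reference wells.

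Spike-in RNA was counted in experiment 1 and gives a scale that does not depend on the other genes of a well, though the rule bears on these values in the same way. In control pool 1 the median of other reads per spike-in read was 0.3359 in mitochondria-rich wells, 3.297 in reference wells and 0.09081 in empty wells. In diabetes pool 1 it was 0.5471, 4.069 and 0.138. For mt- and copy reads per spike-in read the order was different: 0.9995 in mitochondria-rich, 0.4662 in reference and 0.04625 in empty wells of control pool 1, and 1.872, 0.5448 and 0.04324 in diabetes pool 1. Per spike-in read, the median mitochondria-rich well held less of other RNA and more of mitochondrial RNA than the median reference well in both pools with spike-in counts.

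**Figure D2:**
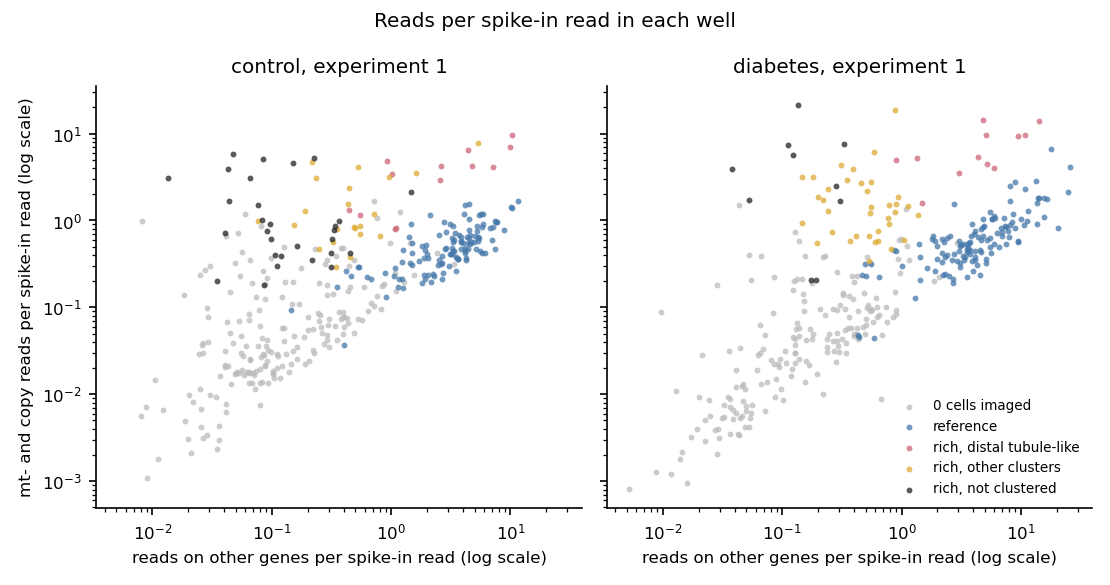
Mt- and copy reads (vertical axis) against other reads (horizontal axis), both per spike-in read on log scales, for each well of the 2 pools of experiment 1. Distal tubule-like mitochondria-rich wells had medians of 4.115 (control pool 1) and 5.314 (diabetes pool 1) mt- and copy reads, above those of reference wells. In other reads, with medians of 2.58 and 4.967, they lay within the range of reference wells. Mitochondria-rich wells with under 500 genes lie at the left, within the range of empty wells in other reads.

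Gene diversity at equal depth was lower too. After thinning to 1000 other reads, mitochondria-rich wells had a median of 448.5, 480, 556 and 518.5 genes, reference wells 589, 569, 617 and 578.5, and empty wells 626, 652, 648 and 600.5. The thinning kept 50 of 64 mitochondria-rich wells of control pool 1, 51 of 58 of diabetes pool 1, and all of experiment 2. The difference was -87.62 genes on average (SD 37.73, n = 4 pools), with mitochondria-rich wells lower in 4 of 4. With 4 pools an exact permutation test over pools cannot pass a threshold of 0.05.

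Clustering of the wells on nuclear genes placed mitochondria-rich wells in nearly every class, but at different rates. Clusters were named after markers, which were chosen with earlier results of these data known. The named class with the highest share of them led with Klk1, Spp1, Umod and Atp1b1 and is called distal tubule-like, with 6 of its markers detected. It held 55 wells, of which 34 were mitochondria-rich (61.82%, exact 95% interval 47.73 to 74.59). By pool the share was 72.22% of 18, 37.5% of 8, 63.16% of 19 and 60% of 10 distal tubule-like wells, against 16.06, 5.714, 22.93 and 19.3% of the wells in all other clusters. The distal tubule-like share was higher in 4 of 4 pools, by 42.22 percentage points on average (SD 10.16). With other clustering resolutions, or with the copies left out of the clustering, it was 60.3448 to 64.9123%. At the lower resolution an unnamed class was higher, with 24 of 36 wells (66.6667%).

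Glomerular classes had lower rates. Mitochondria-rich wells were 24 of 313 endothelial-like wells (7.668%), 12 of 131 mesangial-like wells (9.16%), 18 of 80 podocyte-like wells (22.5%) and 0 of 16 wells like smooth muscle and renin cells. The class called fibroblast-like, whose name rests on 4 detected markers, had 12 of 62. In the other clustering settings that class held 10 to 50 wells and the endothelial-like class 199 to 335, so their rates are less settled. Of the immune-like wells 36 (33.33%) were mitochondria-rich, all in diabetes pools: 15 of 42 and 21 of 56, against 0 of 5 in each control pool. They lay almost entirely in 1 of 2 immune-like clusters, which had 35 of 85 mitochondria-rich wells and led with Gm26870, Lyz2 and Fyb but also with the heat shock genes Hspa1a and Hspa1b. The other, led by MHC class II genes, had 1 of 23. An unnamed cluster led by Igha, Igkc and Hbb-bs had 12 of 22. The remaining 39 mitochondria-rich wells, 29 in control pool 1 and 10 in diabetes pool 1, had under 500 genes and were not clustered.

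**Figure D3:**
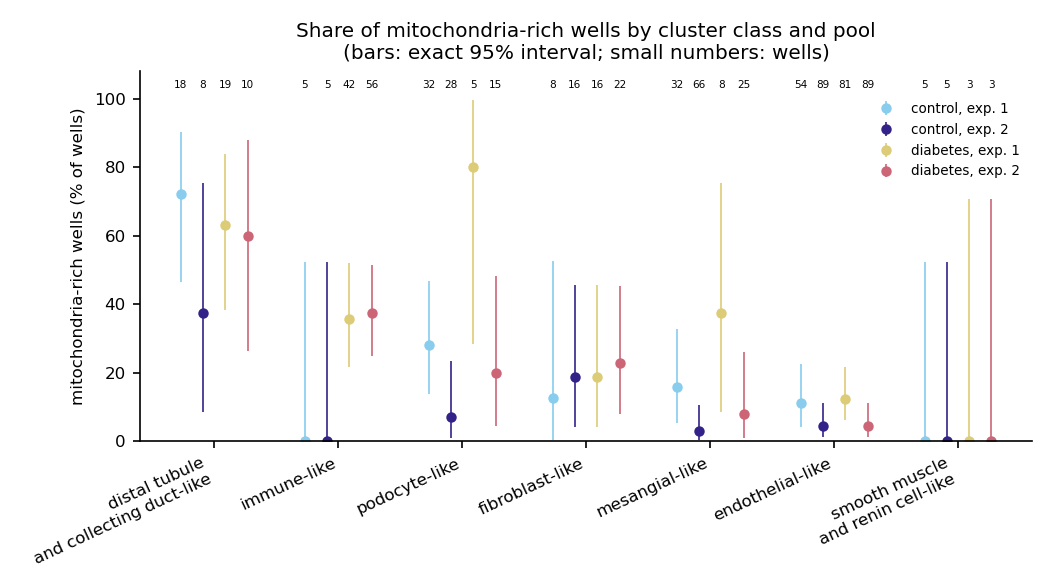
Percentage of wells that were mitochondria-rich (vertical axis) by cluster class and pool, with the exact 95% interval of each share and the number of wells above it. The distal tubule-like class had 61.82% over all pools and the endothelial-like class 7.668%.

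Distal tubule-like and other mitochondria-rich wells differed in how much other RNA they held. In experiment 1 distal tubule-like mitochondria-rich wells had a median of 2.58 other reads per spike-in read in control pool 1 and 4.967 in diabetes pool 1, against 4.528 and 8.05 in reference wells of the same cluster. Those reference wells, 5 and 7 in number, were low in the markers that name the cluster: Egf was at 0 and 38.76 CPM and Umod at 7.71 and 108.5 CPM, so the comparison may set unlike cells side by side. Their mt- and copy reads per spike-in read were 4.115 and 5.314 against 1.045 and 1.564. In endothelial-like wells the other reads were 0.3905 and 0.2304 in mitochondria-rich against 3.112 and 3.672 in reference wells, and the mt- and copy reads 3.1 and 2.102 against 0.3685 and 0.4491. In podocyte-like wells the other reads were 0.433 against 4.361 in control pool 1 and 0.55 in diabetes pool 1, where a single reference well had 4.05. Immune-like wells of diabetes pool 1 had 0.634 against 6.925 other reads and 1.167 against 0.7952 mt- and copy reads. In the unclustered wells the other reads were 0.1067 and 0.1546, near the empty wells, and the mt- and copy reads 0.775 and 3.217. In these medians the gap in other reads between mitochondria-rich and reference wells was smallest for the distal tubule-like class. They rest on few wells, and the differences between classes were not tested.

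Because of this difference in content, distal tubule-like wells supplied most of the other reads of the mitochondria-rich sums in 3 of 4 pools although they were 13, 3, 12 and 6 of the wells. They held 65.11, 54.61, 68.88 and 28.48% of those reads. Immune-like wells held 11.74 and 28.19% in the diabetes pools, and the largest single well held 20.26, 27.23, 14.42 and 11.67%. Summed genes were compared between mitochondria-rich and reference wells with edgeR's quasi-likelihood test with the pool as a block and Benjamini-Hochberg adjustment. In such sums more wells of a type and more RNA per well cannot be told apart.

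Of 11739 genes tested, 186 were higher in mitochondria-rich wells (1.58%) and 8 lower (0.0681%). The median log2 fold change over all genes tested was -0.43, and fold changes are to be read against it. With RLE scaling in edgeR that median was -0.17, 174 genes were higher and none was lower. DESeq2, with the same median, called 584 genes, of which 84.59% were higher, and kept 189 of the 194 calls. The 194 genes called in either direction were 1.65% of genes tested. A single well held over 50% of the counts of at least 1 sum for 171 of the 194. Nuclear copies were 11 of the 194, which is every copy tested. Of the 175 higher genes that were not copies, 127 (72.57%) were higher in distal tubule-like than in other clustered mitochondria-rich wells in all 4 pools, against 5.491% of all genes tested. After the copies and all distal tubule-like wells were left out of both sums, 1 gene of 11389 passed (0.00878%). Leaving out the copies alone gave 168 of 11829 genes (1.42%), with 167 higher (1.41%) and 1 lower (0.00845%). With immune-like wells left out as well as copies and distal tubule-like wells, 1 of 10724 passed (0.00932%). The share of genes with all 4 mitochondria-rich sums above all reference sums was then 0.504%, and 0.632% with immune-like wells kept.

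Distal tubule and collecting duct markers stood highest. Of 9 tested, 5 rose and none fell, with a median log2 fold change of 6.31, and in 6 all mitochondria-rich sums were above all reference sums, as they were for 2.21% of all genes. Slc12a3, the thiazide-sensitive sodium chloride cotransporter of the distal convoluted tubule, was at 139.1, 7798, 900.3 and 1330 CPM in mitochondria-rich wells and at 0.244, 5.445, 6.219 and 10.46 in reference wells (log2 fold change 8.64 ± 0.78 SE, adjusted p = 9.417e-06). Egf, the epidermal growth factor precursor made in the distal nephron, was at 3723, 956, 1384 and 399.7 CPM against 37.81, 22.74, 9.749 and 20.66 (6.31 ± 0.57, adjusted p = 2.487e-06). The mitochondria-rich and reference sums of both genes were separated by a wide gap in every pool. For both, however, a single well held over 50% of the counts of a sum. The reference level of Slc12a3 in control pool 1 was near the floor, and the gene met the count filter only with the mitochondria-rich sums. The test of Slc12a3 and its place among the 5 are thus no further support. Umod, the uromodulin of the thick ascending limb, was at 6436, 2235, 2520 and 42.99 CPM against 9.026, 18.65, 13.78 and 25.64 and did not pass (7.33 ± 2.11, adjusted p = 0.3105). In diabetes pool 2 Umod was thus close to its reference level, while Slc12a3 was not.

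Another 3 genes expressed in the distal nephron and outside that list are given as examples chosen after their values were seen. Klk1, the tissue kallikrein of the connecting tubule, was at 4659, 15050, 10300 and 7600 CPM against 4.879, 41.18, 12.61 and 213.4 (8.96 ± 0.92, adjusted p = 0.0003583). Wnk4, the kinase that regulates Slc12a3, was at 308.1, 1464, 141.1 and 211.2 against 3.903, 0.6505, 1.009 and 1.197 (8.18 ± 0.92, adjusted p = 8.945e-05). The reference levels of Wnk4 were near the floor, and it met the count filter through the mitochondria-rich sums, so its test is no further support. The sodium pump subunit Atp1b1 was at 4484, 2058, 3289 and 734.3 against 197.8, 10.46, 67.57 and 56.69 (5.63 ± 0.70, adjusted p = 0.0002521). Klk1 and Atp1b1 are among the leading genes of the distal tubule-like cluster, so their levels describe which wells the sums hold. For Klk1, Wnk4 and Atp1b1 alike, a single well held over 50% of the counts of a sum.

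Distal tubule-like wells on either side of the threshold differed in these markers. The summed level of the distal tubule and collecting duct markers was 25760, 31330, 13040 and 16250 CPM in mitochondria-rich distal tubule-like wells, and 1218, 2564, 1347 and 20290 in reference wells of the same cluster. In the first 3 pools the mitochondria-rich wells were higher, and in diabetes pool 2, with 6 against 4 wells, they were not. The immune-like mitochondria-rich wells were at 686.1 and 83.74 CPM in the diabetes pools, and the 12 mesangial-like ones at 0 CPM in every pool. All reference wells together were at 139, 65.85, 91.65 and 588.5 CPM, and empty wells at 2341, 483.4, 1128 and 568.1 CPM.

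Nuclear genes for respiratory chain subunits rose together with the tubular genes. Of 24 subunits of complexes II to IV 10 rose and none fell (median log2 fold change 1.77, beside -0.43 for all genes), of 15 of ATP synthase 10 rose (1.90), and of 37 of complex I 4 rose (1.26), where 1.58% of all genes were called higher. These counts were smaller in other fits: 4, 6 and 3 with RLE scaling, 3, 1 and 1 without the pool as a block, and 0 in each list with reference wells weighted to the clusters of the mitochondria-rich wells. In the weighted fit the medians were 1.51, 1.59 and 1.01. Cox6c, a subunit of cytochrome oxidase, was at 2497, 2469, 2466 and 1311 CPM in mitochondria-rich and at 697.5, 399.1, 560.6 and 525.3 CPM in reference wells (2.39 ± 0.42, adjusted p = 0.003064). Cox4i1, another subunit of the enzyme, was at 3478, 4899, 2281 and 2174 against 1200, 1226, 1179 and 1145 (1.76 ± 0.40, adjusted p = 0.02495; 0.0643 with RLE scaling). The 4 mitochondria-rich sums of both genes were above all reference sums, as they were for 2.21% of all genes. For Cox6c a single well held over 50% of the counts of a sum. Atp5a1, the alpha subunit of ATP synthase, was at 2703, 2241, 1900 and 849.4 against 535.7, 718.2, 474.3 and 684.4 (2.01 ± 0.43, adjusted p = 0.018), and Atp5h at 1896, 2695, 1908 and 1526 against 940.9, 758.9, 616 and 691.1 (1.82 ± 0.40). In diabetes pool 2 the difference in Atp5a1 was small.

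Among mitochondria-rich wells, the distal tubule-like ones had the highest levels of nuclear subunits of complexes II to IV. Unclustered ones of diabetes pool 1 were also above the reference wells. Summed over the respiratory complexes II to IV, nuclear subunits list, the level was 39060, 61130, 30100 and 31870 CPM in distal tubule-like mitochondria-rich wells and 10900, 8504, 8172 and 8681 CPM in all reference wells. Immune-like mitochondria-rich wells had 5602 and 4925 CPM in the diabetes pools, unclustered ones had 7496 and 15080 CPM in control pool 1 and diabetes pool 1, and those of the other clusters had 6448, 4556, 8423 and 8323 CPM. In these other clusters the level was below that of the reference wells in 3 of 4 pools and slightly above it in diabetes pool 1. Without distal tubule-like wells and copies none of the 76 subunits of the 3 lists passed: their median log2 fold changes were -0.25 for complex I, -0.17 for complexes II to IV and -0.22 for ATP synthase, beside -0.28 for all genes. Cox6c was then at 650, 101.5, 410.5 and 531.1 CPM in mitochondria-rich wells (0.01, adjusted p = 0.9998). Distal tubule-like reference wells, at 25940, 12810, 13670 and 22780 CPM over complexes II to IV, were also above the other reference wells.

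**Figure D4:**
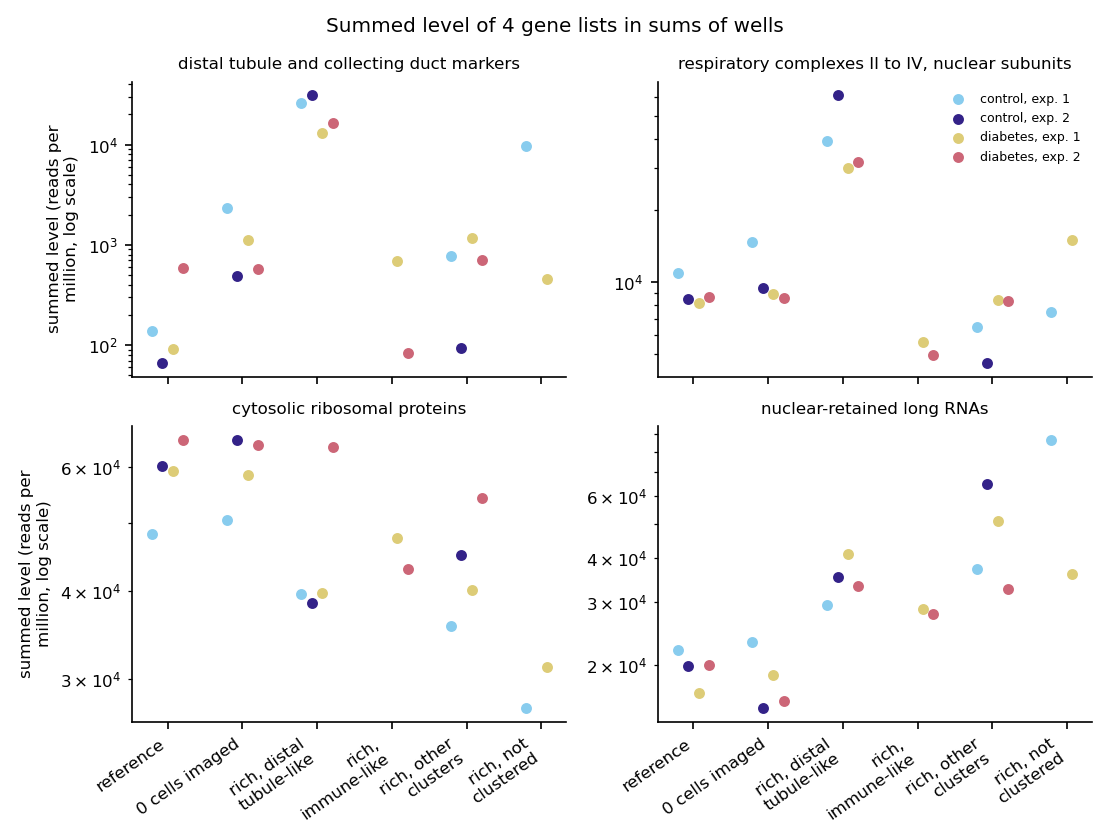
Summed level of 4 gene lists in CPM (vertical axis, log scale) in sums of reference wells, of empty wells and of mitochondria-rich wells split by class, with 1 point per pool. The respiratory complexes II to IV, nuclear subunits reached 30100 to 61130 CPM in distal tubule-like mitochondria-rich wells and 4556 to 8423 CPM in those of the other clusters, while the nuclear-retained long RNAs were at 27810 CPM or more in every mitochondria-rich sum shown.

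Among other genes of mitochondrial metabolism, the levels of Ppargc1a and Cycs in mitochondria-rich wells fell in every pool once the distal tubule-like wells were left out. Ppargc1a was then below the level of all reference wells in control pool 1 alone, and Cycs was above it in diabetes pool 1 alone. For both genes a single well held over 50% of the counts of a sum. Ogdh stayed above the reference in part of the other wells. Ppargc1a, the coactivator that drives formation of mitochondria, was at 145.1, 133.1, 60.47 and 142.4 CPM against 19.76, 2.699, 4.538 and 1.512 (5.14 ± 0.97, adjusted p = 0.006236). In mitochondria-rich wells outside the distal tubule-like class it was at 0, 2.82, 5.402 and 2.091 CPM. Most reference levels of Ppargc1a were near the floor, and it met the count filter only with the mitochondria-rich sums. Its test is thus no further support. Ogdh, the oxoglutarate dehydrogenase of the citric acid cycle (chr11:6291633-6356642), was at 548.6, 1080, 577.8 and 223.6 against 180.5, 132.9, 120.9 and 151.8 (2.26 ± 0.54, adjusted p = 0.03627) and was the 1 of 14 genes of that cycle that passed. In mitochondria-rich wells of clusters neither distal tubule-like nor immune-like Ogdh was at 305.1, 831.6, 178.1 and 43.99 CPM, above the reference wells in the first 3 pools. Cycs, the electron carrier cytochrome c, was at 1389, 1510, 871.8 and 617.3 against 352.5, 191.1, 209.6 and 201.1 (2.56 ± 0.46, adjusted p = 0.003903) and was at 142.5, 62.04, 367.3 and 96.18 CPM in mitochondria-rich wells other than the distal tubule-like ones. Of 17 genes of mitochondrial DNA upkeep only Ppargc1a passed, and of 17 of fatty acid oxidation and 19 of mitochondrial import none did, with medians of -0.38, 0.81 and 0.45. Pkm was the 1 of 14 glycolytic genes that rose, and the metallothionein Mt1 and the peroxiredoxin Prdx5 were the 2 of 18 antioxidant genes.

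Of the lists of cell stress and death, Cycs alone passed the test. None of 15 mitophagy and autophagy genes, 7 of the integrated stress response, 10 heat shock genes, 14 endoplasmic reticulum chaperones and 16 immediate-early genes passed in either direction. Their median log2 fold changes were -0.23, -0.93, -0.75, -0.29 and -0.44, on both sides of the -0.43 of all genes. Among apoptosis and p53 target genes Cycs alone of 18 passed, and the list's median was -0.87. Sqstm1, the autophagy receptor p62, was at 178.9, 153.6, 396.4 and 141.3 CPM against 514, 495.7, 406.4 and 412.8 (-0.78 ± 0.47, adjusted p = 0.54). Atf4, a transcription factor of the integrated stress response, was at 95.41, 2.56, 63.83 and 150.3 against 101.7, 129.7, 155.3 and 123.2 (-0.93 ± 0.84). Cytosolic ribosomal protein genes, with 0 of 79 passing, had a median of -0.04. Summed, the cytosolic ribosomal proteins list was at 48300 to 65630 CPM over the reference pools and at 37570 to 53860 CPM over the mitochondria-rich pools.

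Of the long RNAs that stay in the nucleus, Malat1 and Neat1 were higher in the mitochondria-rich sums. Malat1, which is kept in nuclear speckles (chr19:5795690-5802672), was at 33590, 41790, 39760 and 30300 CPM in mitochondria-rich wells, 21100, 18430, 16060 and 18790 in reference wells and 22160, 14150, 17400 and 14960 in empty wells (1.38 ± 0.33, adjusted p = 0.03627). Neat1, the scaffold of paraspeckles, was at 1393, 3299, 1036 and 949.3 against 424.7, 827, 284.2 and 692.6 (1.93 ± 0.43, adjusted p = 0.02215). All mitochondria-rich sums of both were above all reference sums, as they were for 2.21% of all genes. With RLE scaling neither passed (adjusted p = 0.102 for Malat1 and 0.0512 for Neat1). Of 7 such RNAs tested these 2 passed, 4 were positive, and the median log2 fold change of the list was 1.38. In 2 of the 7, Meg3 and Rian, all mitochondria-rich sums were below all reference sums, as they were for 11.8% of all genes. Meg3, an RNA of an imprinted cluster, was at 47.7, 55.03, 11.76 and 28.79 CPM against 72.21, 67.58, 90.26 and 135.9 (-1.08 ± 0.85, adjusted p = 0.6543). The list's median and its sum thus do not stand for every member. Kcnq1ot1, the antisense RNA of an imprinted cluster, was at 880.5, 3203, 495.5 and 246.4 against 405, 459.9, 142.4 and 283 (1.77 ± 0.53, adjusted p = 0.13), and in diabetes pool 2 it was not higher.

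Unlike the respiratory genes, Malat1 and Neat1 had no smaller fold change once the distal tubule-like wells were left out. Without those wells and the copies Malat1 was at 43160, 50660, 38520 and 29230 CPM, and the fold changes were 1.67 for Malat1 and 2.93 for Neat1, neither past the threshold (adjusted p = 0.1515 for both). The summed nuclear-retained long RNAs, which are mostly Malat1, were at 22080, 19890, 16660 and 20000 CPM in reference wells. In mitochondria-rich wells they were at 29530, 35290, 41040 and 33400 CPM in the distal tubule-like class, 28670 and 27810 in the immune-like class of the diabetes pools, 37290, 64780, 51030 and 32840 in other clusters, and 86430 and 36030 in the unclustered wells of control pool 1 and diabetes pool 1. Each of these 12 sums was above the reference wells of its pool.

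Within a class Malat1 was higher in 4 of 4 pools in podocyte-like and in distal tubule-like wells, and the difference was mixed in endothelial-like wells. Podocyte-like mitochondria-rich wells had 58800, 71880, 70100 and 32980 CPM of Malat1 (9, 2, 4 and 3 wells), against 24310, 29660, 15210 and 27230 in podocyte-like reference wells (23, 26, 1 and 12 wells). Neat1 in the same sums was at 6351, 11550, 9092 and 4121 against 619.7, 3832, 1664 and 4376 CPM, so that diabetes pool 2 was not higher. In endothelial-like wells Malat1 was at 17610, 25400, 30670 and 29420 against 20710, 15370, 19810 and 19930 CPM, lower in control pool 1 and higher in the other 3 pools. Neat1 was at 241.8 CPM against 226.5 in endothelial-like wells of control pool 2 and lower than in reference wells in the other 3. In distal tubule-like wells Malat1 was at 28450, 34420, 40310 and 32980 against 23410, 24550, 23500 and 19750 CPM, higher in 4 of 4 pools. These sums hold few wells, and no test was run within a class.

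Gm43841 passed in the comparison of all wells and in each alternative run for it. It is a processed pseudogene of 586 bases on chromosome 5 (chr5:7276324-7276909), of which a stretch of 36 bases matches the threonine transfer RNA gene mt-Tt at 97.222% identity. It did not meet the definition of a nuclear copy, which asked for 90% identity over 80% of its length. Its level was 320, 97.27, 384.6 and 35.14 CPM in mitochondria-rich wells, 16.1, 4.241, 13.11 and 3.244 in reference wells and 73.62, 6.971, 67.74 and 7.505 in empty wells (4.71 ± 0.72, adjusted p = 0.000889). Without copies and distal tubule-like wells it was the 1 gene left (5.41, adjusted p = 0.03499). In endothelial-like wells it was at 377.8, 282.6, 2394 and 74.93 CPM against 10, 3.224, 14.6 and 2.667 CPM, and whether its reads came from the mitochondrial genome was not tested.

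The rule for naming higher genes, which asks that no well hold over 50% of a sum, was met by 18 genes, 11 of them copies. The 15 with the largest fold change, which are the ones to be named, took in the 11 copies, Gm43841, Ogdh and 2 more. Gm23935, annotated as a microRNA gene (chr16:11144125-11144181), was at 502.9, 323.8, 428.3 and 724.2 CPM against 187.1, 189.2, 82.2 and 168.6 (2.09 ± 0.46, adjusted p = 0.0221) and was higher outside the distal tubule-like wells in 4 of 4 pools. Syne2, which encodes nesprin-2 of the nuclear envelope (chr12:75818134-76110926), was at 592.3, 486.3, 552.6 and 440.4 against 166.4, 213, 169.9 and 177.6 (1.93 ± 0.44, adjusted p = 0.02857). The splicing factor Srrm2, where a well held over 50% of a sum, was at 995.8, 1555, 965.8 and 1690 against 356.2, 736.1, 453.7 and 670.8 (1.67 ± 0.38, adjusted p = 0.02948). Leaving out 1 pool ended many of these calls. Without diabetes pool 1 Ogdh, Gm23935, Syne2, Malat1 and Neat1 no longer passed, with adjusted p from 0.14 for Neat1 to 0.355 for Malat1. Without control pool 1 the adjusted p was 0.0576 for Gm23935, 0.161 for Syne2, 0.0859 for Malat1 and 0.0527 for Neat1. Without control pool 2 it was 0.0903 for Ogdh and 0.0507 for Neat1, and without diabetes pool 2 it was 0.0992 for Gm23935 and 0.0556 for Syne2. Atp5a1 (0.12), Atp5h (0.145) and Cox4i1 (0.0573) were also lost without diabetes pool 1, and Atp5a1 (0.0922) and Cox4i1 (0.0732) without control pool 1. The call of Gm43841 was kept without each pool, with 0.00792 as the largest adjusted p.

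Endothelial genes were lower in the mitochondria-rich sums. Of 14 endothelial markers 2 fell and none rose, with a median log2 fold change of -1.53, and 9 were below the reference in every sum, as were 11.8% of all genes. Emcn, the endomucin of capillary endothelium, was at 777.2, 474.8, 954.1 and 1064 CPM against 2202, 3656, 3281 and 3640 (-1.58 ± 0.35, adjusted p = 0.0245). Kdr, the main receptor for VEGF-A, was at 809, 186.9, 608 and 544.4 against 1627, 1830, 2357 and 2130 (-1.64 ± 0.40, adjusted p = 0.04151). Gpihbp1, which carries lipoprotein lipase across the capillary wall, was at 75.53, 157.4, 196.5 and 794.5 against 222.7, 844.7, 1062 and 4156 (-1.78 ± 0.40, adjusted p = 0.02612). Acta2, the smooth muscle actin, was at 9.938, 16.64, 20.16 and 183.6 against 110.8, 528.2, 261.9 and 404.9 (-2.91 ± 0.68, adjusted p = 0.03173). With RLE scaling these 4 genes had adjusted p of 0.23, 0.251, 0.204 and 0.0824, and DESeq2 called Acta2 alone of the 4. Without diabetes pool 1 the adjusted p was 0.281, 0.355, 0.325 and 0.203. Emcn was also lost without control pool 1 (0.087) and diabetes pool 2 (0.08), Kdr without diabetes pool 2 (0.148), Gpihbp1 without control pool 1 (0.05003) and diabetes pool 2 (0.226), and Acta2 without control pool 2 (0.0945). Endothelial-like wells were 9.375, 26.67, 17.24 and 8% of mitochondria-rich wells and 40, 41.87, 55.47 and 45.21% of reference wells. With reference wells weighted to the clusters of the mitochondria-rich wells the median of the endothelial markers was -1.06 and none of the 14 passed. Without copies and distal tubule-like wells Emcn was at -0.52 and Kdr at -0.53 on the log2 scale (adjusted p = 0.8645 and 0.8771).

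Within endothelial-like wells the summed level of the endothelial markers was lower in mitochondria-rich wells in all 4 pools, by little in 1 of them. Summed, they were at 21200, 6442, 13780 and 18280 CPM in 6, 4, 10 and 4 mitochondria-rich wells and at 21880, 23700, 26440 and 20910 in 48, 85, 71 and 85 reference wells. Emcn was at 4187, 1514, 3779 and 4509 against 5160, 7196, 6403 and 5665 CPM, lower in 4 of 4 pools. Every marker was lower in control pool 2 and diabetes pool 1, but not in the other pools. Pecam1, Cdh5, Kdr, Ehd3, Tek and Ramp2 were higher in control pool 1, and Pecam1, Flt1, Eng, Egfl7 and Ramp2 in diabetes pool 2. Pecam1 was at 1486 against 716.8 and at 2939 against 966 CPM in these pools. The distal tubule and collecting duct markers were at 1765, 230.3, 1129 and 3.992 CPM in these mitochondria-rich wells and at 62.1, 13.71, 39.9 and 62.65 CPM in the reference ones, and their part in the result was not tested. Fewer than 3 pools held 5 or more mitochondria-rich endothelial-like wells, so no test was made.

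Podocyte genes did not pass in either direction. None of 12 podocyte markers passed in the sums over all wells (median log2 fold change 0.79), and without copies and distal tubule-like wells 12 of 12 were positive with a median of 1.92 and none past the threshold. Within podocyte-like wells the summed podocyte markers were at 27170, 57130, 29850 and 29860 CPM in mitochondria-rich and 35480, 45120, 46570 and 37460 CPM in reference wells. Of 12 proliferation genes none passed (median -2.91), and of 12 mesangial markers none did (-1.15).

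**Figure D5:**
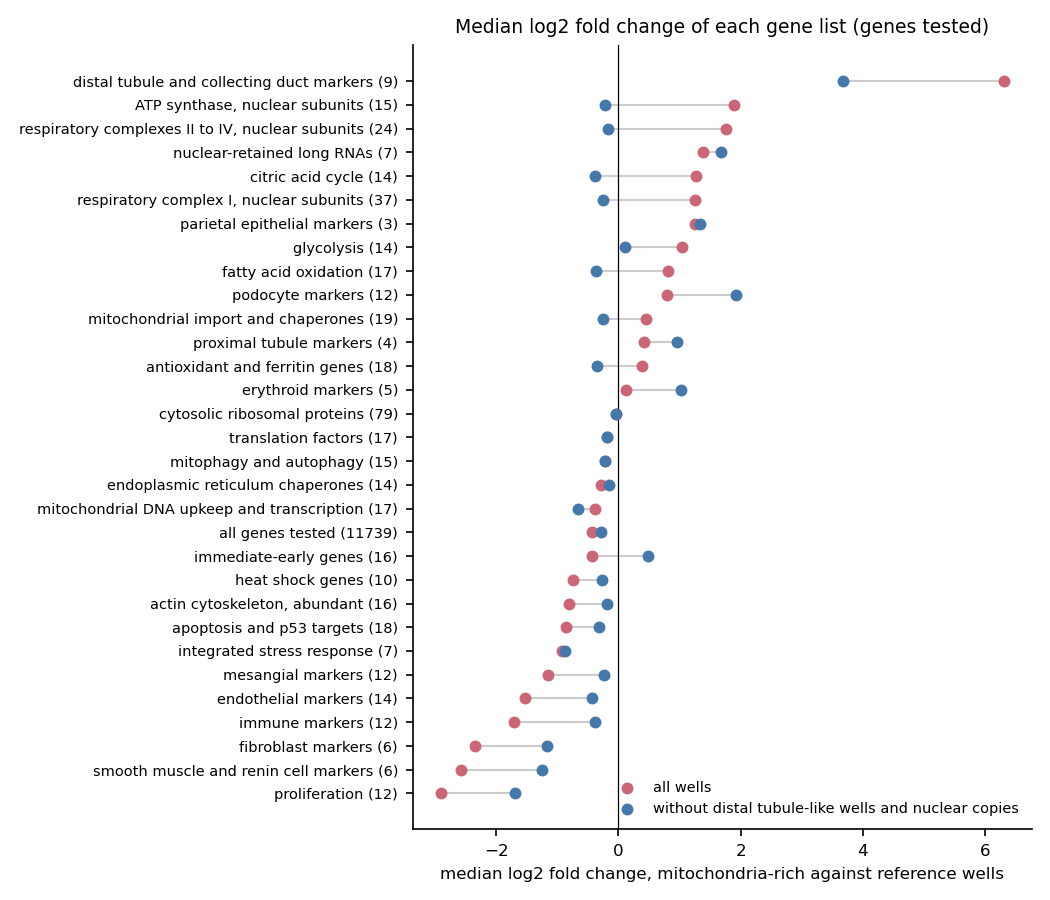
Median log2 fold change of mitochondria-rich against reference wells (horizontal axis) for each gene list, with the number of genes tested in the comparison of all wells in brackets, over all wells and after leaving out distal tubule-like wells and nuclear copies. The complexes II to IV list went from 1.77 to -0.17, while the nuclear-retained RNAs went from 1.38 to 1.67.

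Diabetes and control were compared within mitochondria-rich wells, with the experiment as a block. Of 8099 genes tested none passed with edgeR (0%, 342 at an unadjusted p under 0.05), and DESeq2 called 100. Fits without 1 of the pools had no block and left 1 sum in a condition. Their median log2 fold changes over all genes tested were -0.17 to 1.24. In the fit of all 4 pools the genes of smallest p were nearly all of macrophages and related cells, and red blood cell genes had the same direction. Lyz2, a lysozyme of macrophages, was at 11.93, 1.28, 1062 and 682.7 CPM, and the 12 immune markers were all positive with a median log2 fold change of 6.29, beside 0.21 for all genes, and none past the threshold. Ptprc, the CD45 antigen of blood cells, was at 1.988, 5.119, 104.1 and 618.4 CPM, and Cd74, the invariant chain of MHC class II, at 1.988, 1.28, 344.3 and 124.1. The control levels of the 3 were low, and they met the count filter through the diabetes sums. Their direction, and their part in the count of positive immune markers, is therefore no further result. Erythroid markers were positive in 4 of 4 cases with a median of 9.95: Hbb-bs, a beta globin, was at 0, 0, 1646 and 2449 CPM, and 1 well held up to 99.7% of a sum. Hbb-bs too met the count filter through the diabetes sums. Reference wells had the same pattern for Hbb-bs, at 0, 5.204, 2821 and 1616 CPM. Fibroblast markers were positive in 4 of 4 cases with a median of 3.30, and no member of either list passed. The immune-like class held 0 and 0 of the mitochondria-rich wells in the control pools and 15 and 21 in the diabetes pools. Nuclear subunits of complexes II to IV were positive in 1 of 24 cases, with a median of -1.15, and none passed.

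Condition was joined to other differences between the pools. Xist, the RNA of the inactive X chromosome in females, had a level of 481 and 1797 CPM in the control pools' mitochondria-rich wells, and of 8.398 and 0 CPM in those from diabetes. The summed level of Y-linked genes was 0 and 0 CPM in the control pools and 280.5 and 161.5 CPM in the diabetes pools, and reference wells had the same pattern, although the submitters describe the littermates as matched for sex. Sex-linked expression and diabetes cannot be told apart in these pools. In the comparison of the mitochondria-rich difference between diabetes and control, 1 of 11739 genes passed (0.00852%, 458 at an unadjusted p under 0.05). It was Igkc, an immunoglobulin light chain gene, at 405.5, 312.3, 13.44 and 3943 CPM in mitochondria-rich and 3.903, 11.35, 33.79 and 6607 CPM in reference wells. A single well held up to 90.98% of the counts of 1 of these sums.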

How the data were processed

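Single-cell libraries from 4 pools of Nos3-/- glomerular cells were measured, with 400 wells each. The deposited expected counts per gene were made on mm10, and the submitters' processing notes name featureCounts 1.5.1, BWA 0.7.17-r1188, cutadapt 1.11 and STAR 2.4.2a, with no role for each. The deposited counts of spike-in reads, as the authors' files hold them, cover experiment 1 only. Wells were assigned to pools and cell numbers from their labels. A table of gene names matched 45143 of 45792 gene IDs, with 649 unmatched, and 37 genes start with mt-.

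Genes were summed per pool for mitochondria-rich and reference wells without the mt- genes, rounded to whole numbers and tested with edgeR 4.0.16 (quasi-likelihood, TMM scaling, filterByExpr) in R 4.3.3, with Benjamini-Hochberg adjustment at 0.05 over all genes. Both sums of a pool come from the same 3 mice, so the pool was a block. Levels in CPM use reads on genes other than mt- genes and copies, while fold changes come from the fit that kept the copies. Total reads per pool, mt- genes included, ran from 1689000 to 6340000 in mitochondria-rich and from 4764000 to 48390000 in reference wells, so the former are less precise. Copies were found with blastn 2.17.0 among GENCODE M21 transcripts (GRCm38), which also gave the sequences and coordinates. Wells with 500 genes were clustered with scanpy 1.11.5 (2000 variable genes, 15 components, Leiden resolution 0.8) and named from marker lists. No doublet caller was run beyond the imaging labels. Scripts were tested on simulated data.

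Named genes passed the threshold with the same sign in every pool, a mean of 30 CPM or more and no well over 50% of any sum with 20 counts, up to 15 a direction. If fewer than 10 passed, the 10 of smallest p were given, and each list gave its 4 most abundant members. The members and the 30 lists were chosen with earlier results of these data known. Alternatives were DESeq2 1.42.0, RLE scaling, other thresholds, filters and weights, thinning, and leaving out each pool. Those that leave out copies, or copies with wells of a class, or the deepest wells, and other clustering settings, were chosen after seeing the data.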

Additional observations from a re-analysis of the deposited data

Results flagged for a closer look

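Gpihbp1 had 1 pool apart from the other 3 in its difference between mitochondria-rich and reference wells. The gap of that pool to its nearest neighbour was 0.952 of the whole range of the 4 differences. Dixon's criterion was applied to 17 values, and chance flags about 1 in 20 groups. The levels were 75.53, 157.4, 196.5 and 794.5 CPM in mitochondria-rich and 222.7, 844.7, 1062 and 4156 CPM in reference wells, so the difference was smallest in control pool 1.

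Igkc was the gene whose difference between mitochondria-rich and reference wells differed between diabetes and control in the edgeR interaction term, at -7.12 on the log2 scale. Its levels are in the report, and 1 well held up to 90.98% of the counts of a sum.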

How the results depend on the processing

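Of the 39 named genes that passed, 24 stayed past the threshold with RLE scaling, 34 with DESeq2 and 19 without the pool as a block. The comparison of all wells gave 194 genes. It gave 584 with DESeq2, 356 with no filter on low counts, 99 with no replicate block for the pools, 64 after thinning to 2000 reads, 53 with reference wells weighted to the clusters of mitochondria-rich wells, 32 with equal weight per well, 30 with a share over 50%, 30 without the deepest 10% of mitochondria-rich wells of each pool, 12 without tubular-like wells, and 1 once copies were also out, with or without immune-like wells. Leaving out a pool gave 125 (without diabetes pool 1) to 247 genes. The difference of the contrast between diabetes and control gave 1 gene, 33 with DESeq2, 2 with a share over 20%, 0 with no replicate block, 9 with no filter and 0 to 192 without a pool, the most without control pool 1. Diabetes against control in mitochondria-rich wells gave 0 genes, 100 with DESeq2, 28 with a share over 20%, 10 with no filter and 1 to 432 without a pool, the most again without control pool 1. Signs reversed with a share over 50% for Ogdh (-0.27), Atp5h (-0.20) and Atp5a1 (-0.34). They reversed without tubular-like wells for Ndufa3 (-0.15), Cox6c (-0.12), Atp5h (-0.46) and Cycs (-0.23), and with copies also out for Ndufa3 (-0.0251), Atp5h (-0.34) and Cycs (-0.11). With immune-like wells out too, H2-Aa was at 1.06, Ndufa3 at -0.53 and Atp5h at -0.30. H2-Aa was the 1 of 12 immune markers called lower over all wells, where none was positive and the list's median was -1.72. Without those deepest wells Ndufa3 was at -0.26, Atp5h at -0.14 and Cycs at -0.0055. The cause was not tested. Alternatives for endothelial-like wells were not run, since under 3 pools held 5 such wells. Few reads in many mitochondria-rich wells limit what low genes can show.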
